A study of Mus musculus with 15 samples.

Results

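The genes described here are 10 members of the Notch pathway in cultured bone marrow mesenchymal stromal cells (MSCs). They are the 4 receptors *Notch1*, *Notch2*, *Notch3* and *Notch4*, the 2 ligands *Jag1* and *Jag2*, and the 4 target genes *Hes1*, *Hey1*, *Hey2* and *Heyl*. They were taken by symbol from a table of 56832 mouse genes, and all 10 were among the 17204 genes with enough counts to be tested. Notch receptors are membrane proteins that are bound by a ligand on a neighbouring cell. Binding opens the receptor to cleavage by an ADAM protease and then by γ-secretase, and the released intracellular domain joins the DNA-binding protein RBPJ and a Mastermind coactivator to switch on genes such as those of the HES and HEY repressors. In bone, Notch signalling is known to hold back the maturation of osteoblasts from stromal progenitors, and JAG1 on stromal cells is known as a ligand seen by blood-forming cells.

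Bulk RNA-sequencing compared MSCs of mice without the taurine transporter TauT, which is encoded by *Slc6a6*, with those of wild-type controls, and the values are the authors' read counts per gene. The mice were 16 weeks old and of C57BL/6J background, and the knockout is global, so that every tissue of the donor mice lacked the transporter. Bone marrow cells of the long bones were grown on collagen at 2% oxygen. MSCs were then enriched by depletion or sorting against blood, red cell and endothelial surface proteins, and libraries were made from 1 ng of RNA. RNA of blood cell markers remained in the libraries, as given below. Of the 15 libraries, 8 were labelled male (4 TauT+/+, 4 TauT-/-) and 7 female (3 TauT+/+, 4 TauT-/-). Whether a library came from 1 mouse or from pooled mice is not given in the sources used here, so p-values measure the spread between these libraries only. In bulk RNA, fewer cells of a type and less RNA per cell cannot be told apart.

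Several libraries stood apart or went against a label. Total counts were 69764291 to 101575071 with the male label and 12761107 to 20781070 with the female label, so depth and sex label cannot be told apart, although each depth held both genotypes. Sex-linked genes went against the label in 3 libraries, those labelled TauT+/+ male 1, TauT+/+ female 3 and TauT-/- male 1. Among 105 pairs of libraries, male 1 and female 1 of the same genotype resembled each other far more than other libraries did. The log2 count ratio per gene had a spread of 0.104 between these libraries of TauT-/- and of 0.115 between those of TauT+/+. Counting error would give 0.0601 and 0.0627. The next closest pair, labelled TauT+/+ male 3 and TauT-/- male 3, had 0.289 and differed in genotype label. *Slc6a6* itself had 592 to 2591 CPM, read counts scaled to a common library size, in TauT+/+ and 401 to 1521 CPM in TauT-/- libraries, which overlapped (log2 fold change of TauT-/- over TauT+/+ -0.97, standard error (SE) 0.36, adjusted p = 0.125 by edgeR). Counts per gene do not show whether the RNA can make a working transporter, and the paper reports far less taurine in TauT-/- MSCs. Because of the sex-linked genes and the close pairs, libraries are named by their labels throughout. The genotype effect on each Notch gene is given beside fits with 13 libraries, 1 of each close pair left out. Fits with the 12 libraries whose sex-linked genes match the label are given too.

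With 15 libraries, none of the 10 Notch genes differed between the genotypes in edgeR's quasi-likelihood test with Benjamini-Hochberg adjustment, in which 1.30% of all tested genes passed an adjusted p of 0.05. DESeq2 also called 0 of the 10, where it called 12.1% of all tested genes, and so did limma's voom. At an unadjusted edgeR p under 0.05 there was 1 of 10, *Hey1*, which is a smaller share than the 23.6% of all tested genes. With a block for the replicate number within the sex label, it was also 1 of 10, but *Notch4* in place of *Hey1*. Without this block, the median log2 fold change of the 10 genes was 0.15, with 6 above and 4 below 0. The median of all tested genes was -0.02. These counts do not set the Notch genes apart from the rest of the table. No member had all TauT-/- libraries on one side of all TauT+/+ libraries, as 1.13% of tested genes did. Several members varied widely between libraries of the same group, as their values show.

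**Figure D1:**
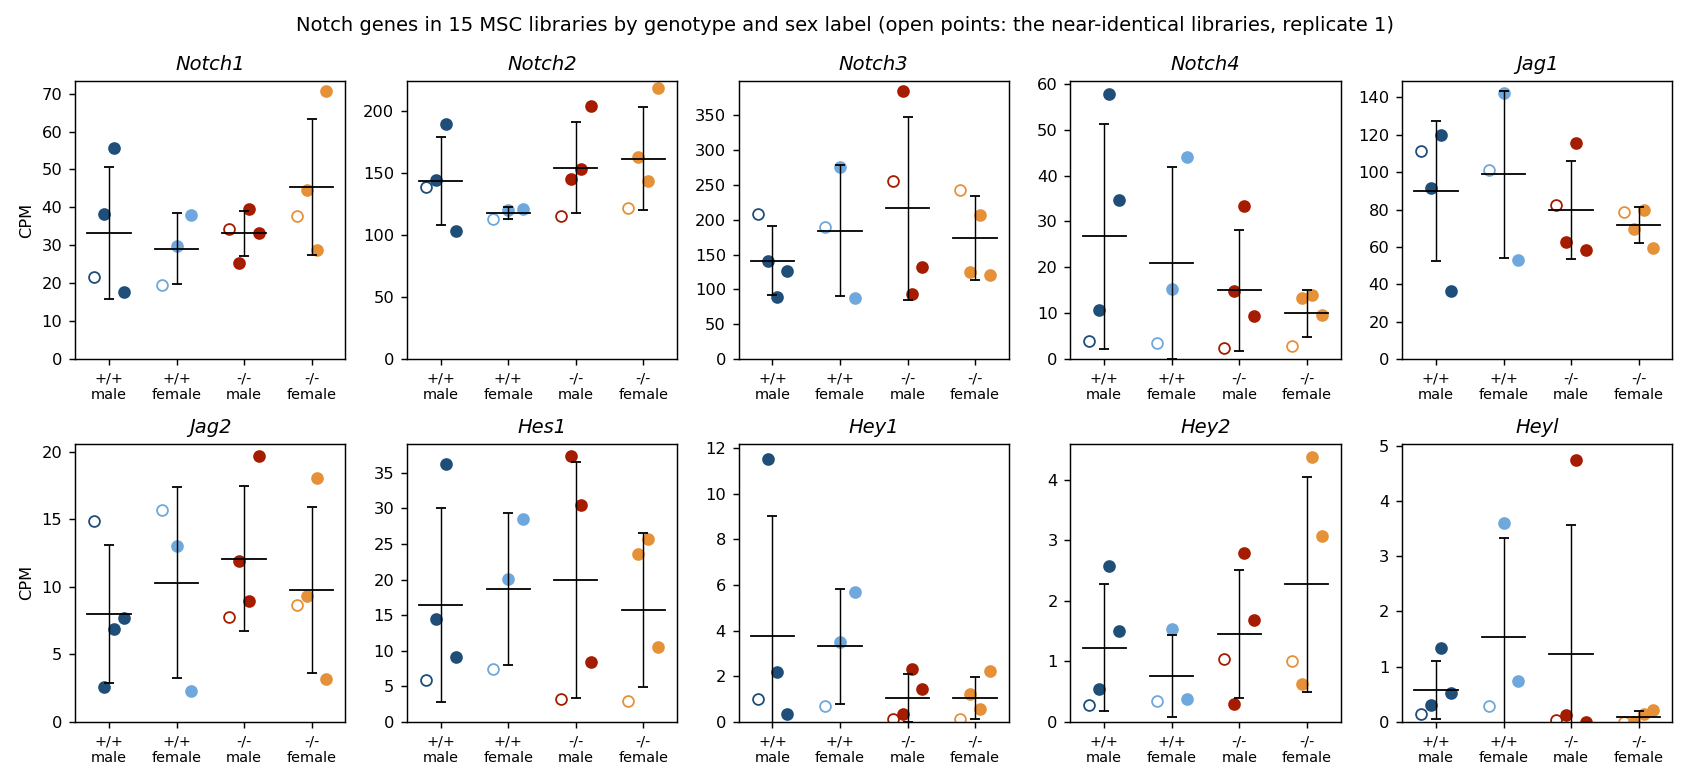
CPM of each of the 10 Notch genes on the y axis, 1 point per library, by genotype and sex label, with the mean and SD of each group as bars (bars reaching below 0 are cut at the axis) and open points for the 4 libraries of the near-identical pairs. The groups overlap for most genes, *Notch4* and *Hes1* are lowest in the open points, and *Hey1* and *Heyl* are each led by 1 or 2 libraries.

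*Notch3*, a receptor known from pericytes and vascular smooth muscle, lies on chromosome 17 of GRCm39 from 32339794 to 32385893 on the minus strand. TauT+/+ male libraries 1 to 4 had 208, 141, 89.0 and 127 CPM, and female libraries 1 to 3 had 189, 276 and 87.9 CPM. TauT-/- male libraries 1 to 4 had 256, 384, 93.9 and 132 CPM, and female libraries 1 to 4 had 242, 124, 206 and 121 CPM. The lowest 3 values were those of the libraries labelled TauT+/+ male 3, TauT+/+ female 3 and TauT-/- male 3, and the genotypes spanned much the same range. The means were 159.8 ± 68.6 CPM (SD, n = 7) for TauT+/+ and 195 ± 97.6 CPM (SD, n = 8) for TauT-/-, with a log2 fold change of 0.29 (SE 0.33, adjusted p = 0.629 by edgeR). It was 0.05 without the library labelled TauT-/- male 2, the highest, and 0.18 or 0.52 without that labelled TauT+/+ male 3 or TauT+/+ female 2. With 13 libraries it was 0.30 or 0.31, and with 12 it was 0.21.

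*Notch2*, a receptor with roles in both osteoblasts and osteoclasts, lies on chromosome 3 from 97920800 to 98057677 on the plus strand. It was the steadiest of the 10 genes, with a 2.12-fold range over all 15 libraries. In TauT+/+ MSCs, male libraries 1 to 4 had 139, 144, 189 and 103 CPM, and female libraries 1 to 3 had 112, 119.9 and 121 CPM. In TauT-/- MSCs, male libraries 1 to 4 had 115, 145, 153 and 204 CPM, and female libraries 1 to 4 had 121, 163, 143 and 218 CPM. Of the TauT-/- libraries, 7 of 8 were above the TauT+/+ median, yet the ranges overlapped. The log2 fold change was 0.26 (SE 0.16, 95% interval -0.09 to 0.62, adjusted p = 0.347 by edgeR). It was 0.33 or 0.29 with 13 libraries, depending on whether the female-labelled or the male-labelled ones of the close pairs were kept, and 0.36 with 12 libraries.

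*Notch1*, the most widely studied receptor of the family, lies on chromosome 2 from 26347915 to 26406675 on the minus strand. It ranged from 17.6 to 55.7 CPM (median 29.8) in TauT+/+ and from 25.3 to 70.6 CPM (median 35.97) in TauT-/- libraries. The library labelled TauT-/- female 4 had the highest value of *Notch1* and also of *Notch2*. The log2 fold change of *Notch1* was 0.29 (SE 0.27, adjusted p = 0.546 by edgeR). Leaving that library out gave 0.14, leaving out that labelled TauT+/+ male 3 or TauT+/+ female 1 gave 0.50 or 0.18, and fits with 13 and 12 libraries gave 0.24, 0.21 and 0.33. The library labelled TauT-/- female 4 also had the highest summed level of 12 macrophage markers, 19503 CPM, and the lowest of 12 MSC markers, 6098 CPM, and the part of these in the *Notch1* and *Notch2* levels was not tested.

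*Notch4*, a receptor known mainly from endothelium, lies on chromosome 17 from 34783220 to 34807477 on the plus strand. TauT+/+ male libraries 1 to 4 had 3.93, 10.7, 57.7 and 34.6 CPM, and female libraries 1 to 3 had 3.45, 15.4 and 44.0 CPM. TauT-/- male libraries 1 to 4 had 2.46, 14.8, 33.3 and 9.29 CPM, and female libraries 1 to 4 had 2.93, 13.4, 13.9 and 9.54 CPM. The 4 libraries numbered 1, which form the near-identical pairs, held the 4 lowest values, and the 3 libraries with the lowest *Notch3* were among the 4 highest in *Notch4*. The range over 15 libraries was 23.4-fold. Of the TauT-/- libraries, 1 of 8 was above the TauT+/+ median. The means were 24.3 ± 21.3 CPM (SD, n = 7) and 12.5 ± 9.66 CPM (SD, n = 8), with a log2 fold change of -0.95 (SE 0.64, adjusted p = 0.385 by edgeR). It was -0.45 without the library labelled TauT+/+ female 3, -0.62 without TauT+/+ male 3 and -0.39 with 12 libraries, and -0.98 or -0.97 with 13. Endothelial markers were mixed in these libraries. Of 12 endothelial markers, 6 (*Cdh5*, *Tie1*, *Emcn*, *Erg*, *Cldn5* and *Robo4*) were under 1 CPM in every library, and the 12 summed to 9.68 to 20.5 CPM in TauT+/+ and 13.5 to 117 CPM in TauT-/- libraries. Of 7 that were tested, 5 were above and 2 below 0, and edgeR called 0. *Kdr*, a VEGF receptor, had up to 35.0 CPM in TauT-/- libraries, with a log2 fold change of 2.14 (adjusted p = 0.0561 by edgeR). *Vwf*, which encodes von Willebrand factor, had up to 73.1 CPM, in the library labelled TauT-/- female 4, with a log2 fold change of 1.32 (adjusted p = 0.178 by edgeR). The part of these markers in the *Notch4* level was not tested.

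Levels of different genes can be set beside each other only per length, so CPM were divided by the exon length of each gene in kb. In TauT+/+ MSCs *Notch3* had 17.7 ± 7.61 CPM per kb, *Notch2* 11.8 ± 2.56, *Notch4* 2.74 ± 2.41 and *Notch1* 2.21 ± 0.959 (SD, n = 7). In TauT-/- MSCs *Notch3* had 21.6 ± 10.8 CPM per kb, *Notch2* 14.0 ± 3.24, *Notch1* 2.76 ± 0.986 and *Notch4* 1.41 ± 1.09 (SD, n = 8). *Notch3* and *Notch2* together thus made up most of the receptor RNA per length in every library. *Notch3* was the most abundant receptor in 9 of 15 libraries and *Notch2* in the other 6, which were 2 of 7 TauT+/+ and 4 of 8 TauT-/- libraries. The share of *Notch3* in the receptor level per length was 50.5 ± 15.5% in TauT+/+ and 52.1 ± 16.01% in TauT-/- MSCs (SD), and that of *Notch2* was 34.6 ± 7.02% and 36.7 ± 11.7%. *Notch4* made up 1.19 to 17.7% in TauT+/+ and 0.673 to 12.3% in TauT-/- libraries. *Notch1* had 6.51 ± 2.84% and 7.30 ± 3.04%. The shares of a library sum to the whole, so a lower share of one receptor is a higher share of the others.

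**Figure D2:**
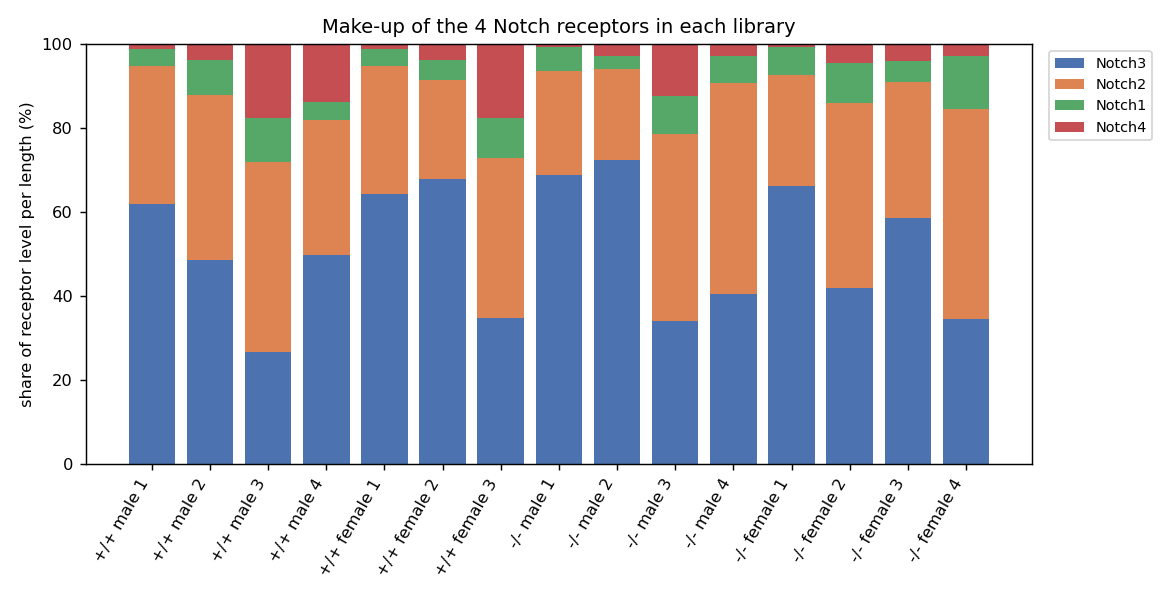
Share of each of the 4 Notch receptors in their summed level per length (y axis, %), 1 stacked bar per library on the x axis. *Notch3* and *Notch2* fill most of each bar, and *Notch4* is widest in the libraries labelled TauT+/+ male 3, TauT+/+ male 4, TauT+/+ female 3 and TauT-/- male 3.

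The ligands were represented mainly by *Jag1*, which lies on chromosome 2 from 136923373 to 136958693 on the minus strand. In TauT+/+ MSCs, male libraries 1 to 4 had 111, 91.6, 119.8 and 36.3 CPM, and female libraries 1 to 3 had 101, 142 and 53.2 CPM. In TauT-/- MSCs, male libraries 1 to 4 had 82.3, 62.7, 116 and 58.4 CPM, and female libraries 1 to 4 had 78.7, 69.5, 79.8 and 59.2 CPM. Both the highest and the lowest value were in TauT+/+ libraries, and 1 of 8 TauT-/- libraries was above the TauT+/+ median. The means were 93.6 ± 37.3 CPM (SD, n = 7) and 75.8 ± 18.7 CPM (SD, n = 8), with a log2 fold change of -0.30 (SE 0.26, 95% interval -0.85 to 0.24, adjusted p = 0.492 by edgeR). It was -0.12 without the library labelled TauT+/+ female 2. With 13 libraries it was -0.28 or -0.26, and with 12 it was -0.37.

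*Jag2*, the second Jagged ligand, lies on chromosome 12 from 112871421 to 112893437 on the minus strand. It ranged from 2.26 to 15.7 CPM (median 7.66) in TauT+/+ and from 3.18 to 19.7 CPM (median 9.12) in TauT-/- libraries. Its log2 fold change was 0.29 (SE 0.46, adjusted p = 0.738 by edgeR), and it was -0.05 when female-labelled libraries were fitted alone. It was 0.53 or 0.57 with 13 and 0.40 with 12 libraries, and 0.11 to 0.54 with 1 library left out, lowest without TauT+/+ male 2 and highest without TauT+/+ female 1. Per length, *Jag1* was far above *Jag2*, with 15.7 ± 6.25 against 1.27 ± 0.790 CPM per kb in TauT+/+ MSCs (SD, n = 7) and 12.7 ± 3.13 against 1.54 ± 0.775 in TauT-/- MSCs (SD, n = 8).

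Of the target genes, *Hes1* was the most abundant. It encodes a repressor that is switched on by Notch in many tissues, and lies on chromosome 16 from 29882134 to 29886643 on the plus strand. TauT+/+ male libraries 1 to 4 had 5.87, 14.4, 36.3 and 9.16 CPM, and female libraries 1 to 3 had 7.36, 20.0 and 28.6 CPM. TauT-/- male libraries 1 to 4 had 3.25, 37.4, 30.5 and 8.46 CPM, and female libraries 1 to 4 had 2.93, 23.6, 25.8 and 10.5 CPM. The 4 libraries numbered 1 again held the lowest 4 values, and the genotypes covered much the same range, 12.7-fold in all. The means were 17.4 ± 11.5 CPM (SD, n = 7) and 17.8 ± 13.2 CPM (SD, n = 8), with a log2 fold change of 0.03 (SE 0.57, 95% interval -1.19 to 1.26, adjusted p = 0.981 by edgeR). The interval reaches well past 0 on both sides, so this fit does not settle whether or which way *Hes1* changed. With a block for the replicate number within the sex label, the log2 fold change was -0.15 (SE 0.28). With 13 libraries it was 0.02 or 0.10, with 12 it was 0.32, and with 1 library left out it took either sign.

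*Hey1* encodes a HES-related repressor and is widely used as a readout of Notch signalling. It lies on chromosome 3 from 8726956 to 8732385 on the minus strand. In TauT+/+ MSCs, male libraries 1 to 4 had 0.990, 11.5, 2.18 and 0.350 CPM, and female libraries 1 to 3 had 0.690, 3.52 and 5.71 CPM. In TauT-/- MSCs, male libraries 1 to 4 had 0.0981, 0.322, 2.33 and 1.43 CPM, and female libraries 1 to 4 had 0.105, 1.20, 0.556 and 2.24 CPM. The 3 highest values were in TauT+/+ libraries and the 3 lowest in TauT-/- libraries, with overlap between them, and the whole range was 118-fold. The 2 lowest values rest on 8 counts (TauT-/- male 1) and 2 counts (TauT-/- female 1). The means were 3.57 ± 3.99 CPM (SD, n = 7) and 1.04 ± 0.910 CPM (SD, n = 8), with a log2 fold change of -1.77 (SE 0.82, 95% interval -3.53 to -0.02). Its p was 0.0478 without adjustment and 0.207 with it by edgeR, and 0.111 with adjustment by DESeq2. Without the library labelled TauT+/+ male 2, the highest of all, the log2 fold change came to -0.94, and it was -1.73, -1.81 and -1.42 with 13 and 12 libraries. It stayed below 0 in all 15 fits that left out 1 library, without passing the adjusted threshold in any of them.

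*Hey2*, a second HEY repressor with known roles in heart and arteries, lies on chromosome 10 from 30708350 to 30718828 on the minus strand. Its promoter is shown because it is the only one of the 7 Notch genes with a promoter window in the RefSeq table used here (*Notch1* to *Notch4*, *Jag1*, *Jag2* and *Hey2*) that holds the letters bound by RBPJ, the DNA-binding partner of cleaved Notch. *Hes1*, *Hey1* and *Heyl* have no window in that table. The window covers the 250 bases before the start at chr10:30842784-30843033, minus strand, of build GRCm38.p6, an earlier build than that of the gene positions above. It reads 5′ to 3′, with the match in capitals.
Hey2: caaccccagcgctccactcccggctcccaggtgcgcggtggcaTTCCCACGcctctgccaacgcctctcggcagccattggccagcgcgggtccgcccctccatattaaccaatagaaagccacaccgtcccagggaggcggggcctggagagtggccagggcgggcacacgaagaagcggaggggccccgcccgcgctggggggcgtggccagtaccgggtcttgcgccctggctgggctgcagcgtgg
The capitals are the reverse complement of CGTGGGAA, begin 207 bases before the start, and contain TTCCCA, the reverse complement of the shorter core TGGGAA. Both strands were searched, and the longer motif contains the core. The core was present in 24.1% and the longer motif in 0.747% of the promoters of 27025 genes. A match is a run of letters and not evidence of binding, and no match says only that these letters are not in that window.

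*Hey2* itself was expressed at a low level. TauT+/+ male libraries 1 to 4 had 0.277, 0.534, 2.58 and 1.51 CPM, and female libraries 1 to 3 had 0.345, 1.53 and 0.368 CPM. TauT-/- male libraries 1 to 4 had 1.03, 0.299, 2.78 and 1.68 CPM, and female libraries 1 to 4 had 0.995, 0.624, 4.38 and 3.08 CPM. Of the TauT-/- libraries, 7 of 8 were above the TauT+/+ median, with the libraries labelled TauT-/- female 3 and TauT-/- female 4 the highest, but the ranges overlapped. The log2 fold change was 0.83 (SE 0.65, adjusted p = 0.460 by edgeR), opposite in sign to that of *Hey1*. It was 0.82, 0.72 and 0.62 with 13 and 12 libraries.

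*Heyl*, the third HEY gene, is known as a Notch target in mural cells and lies on chromosome 4 from 123127349 to 123143682 on the plus strand. In TauT+/+ MSCs, male libraries 1 to 4 had 0.146, 0.30, 1.33 and 0.524 CPM, and female libraries 1 to 3 had 0.287, 3.60 and 0.737 CPM. In TauT-/- MSCs, male libraries 1 to 4 had 0.0245, 0.126, 4.74 and 0 CPM, and female libraries 1 to 4 had 0, 0, 0.139 and 0.209 CPM. All 7 TauT+/+ libraries held reads of *Heyl*, while 3 of 8 TauT-/- libraries held none and 1 of 8, the library labelled TauT-/- male 3, was the highest of all. A count of 0 allows a level of up to 0.157 CPM in the library labelled TauT-/- female 1, 0.144 CPM in female 2 and 0.0341 CPM in male 4, and such limits cover counting error only. The log2 fold change over 15 libraries was -0.99 (SE 1.51, adjusted p = 0.725 by edgeR). It was -3.76 without the library labelled TauT-/- male 3 and -0.14 without that labelled TauT+/+ female 2, and these fitted values depend on the small count that edgeR adds to libraries at 0. With 13 libraries it was -1.36 or -0.59, and with 12 it was -1.40.

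**Figure D3:**
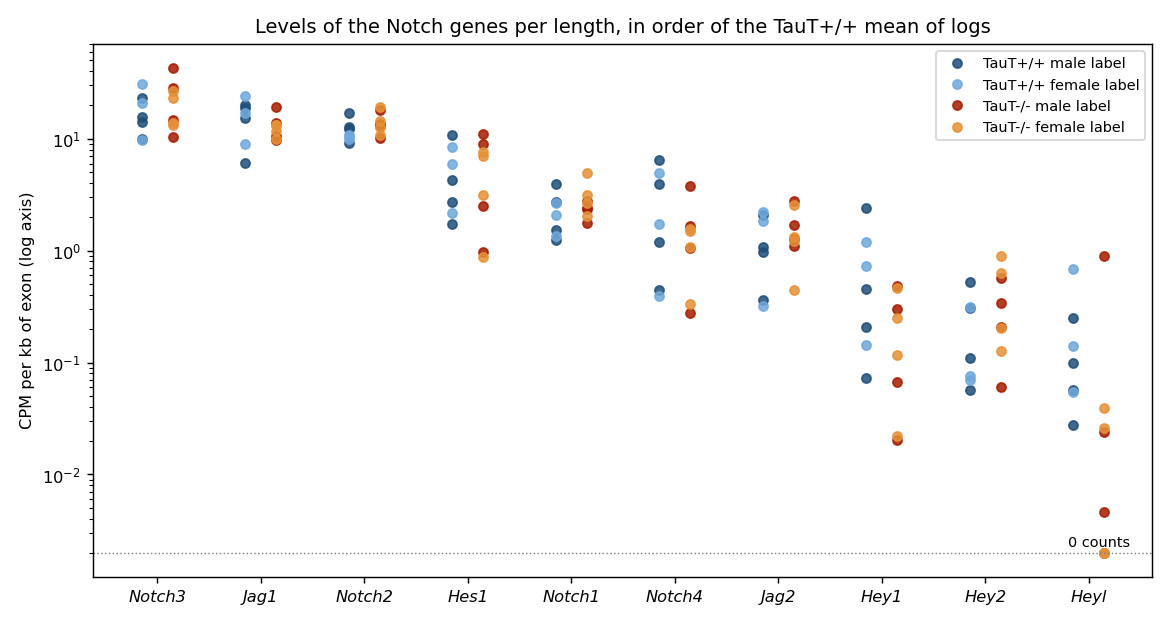
Level of each Notch gene per length (y axis, CPM per kb of exon on a log scale) in each library, with TauT+/+ libraries on the left and TauT-/- libraries on the right of each gene, and the 3 libraries without a *Heyl* read on the dotted line. *Notch3*, *Jag1* and *Notch2* lie highest and the HEY genes lowest, with ranges that widen toward the bottom.

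Over the 7 TauT+/+ libraries, the order of levels per length, by the mean of the logarithms, was *Notch3*, *Jag1*, *Notch2*, *Hes1*, *Notch1*, *Notch4*, *Jag2*, *Hey1*, *Hey2* and *Heyl*. Neighbours in this order were compared within each library by an exact 2-sided sign-flip permutation test, with p adjusted over 9 pairs, and the smallest p that 7 libraries allow is 0.0156. *Notch2* was above *Hes1* and *Hes1* above *Notch1* in 7 of 7 libraries, each with an exact p of 0.0156 and an adjusted p of 0.0703. No pair of neighbours therefore passed the adjusted threshold, which with 7 libraries does not show that their levels were alike. These 7 include the near-identical libraries labelled TauT+/+ male 1 and female 1, which the test counted as separate. In each genotype, the neighbours tested were set by the order in the same libraries. *Notch3* was above *Jag1* in 6 of 7 libraries (exact permutation p = 0.484) and *Jag1* above *Notch2* in 5 of 7 (exact permutation p = 0.203). *Notch3* was not tested against *Notch2* in this order. In the 8 TauT-/- libraries the order was *Notch3*, *Notch2*, *Jag1*, *Hes1*, *Notch1*, *Jag2*, *Notch4*, *Hey2*, *Hey1* and *Heyl*. There 3 pairs of neighbours passed in the exact permutation test, each with an adjusted p of 0.0469. *Jag1* was above *Hes1* in 7 of 8, *Notch4* above *Hey2* in 8 of 8 and *Hey1* above *Heyl* in 7 of 8 libraries. These 8 include the near-identical libraries labelled male 1 and female 1, and with either of them, or any other TauT-/- library, left out, 0 pairs passed. Without male 1 or female 1 the exact permutation p of these pairs was 0.0156 or 0.0312 and the adjusted p 0.0938. The smallest exact p is 0.0078 with 8 libraries and 0.0156 with 7. The left-out fits thus cannot tell the part of the near-identical libraries from that of having fewer libraries. Whether the order differs between the genotypes was not tested. Among all tested genes, *Notch2* varied little between libraries, with an SD of log2 CPM at the 31.3 percentile, *Notch1*, *Jag1* and *Notch3* were at 51.4, 50.1 and 58.2, and *Notch4*, *Hey1* and *Heyl* at 85.7, 93.9 and 99.3.

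Within the male label, edgeR called 0 of the 10 Notch genes and 0 of all genes between the genotypes, and 1483 genes had an unadjusted p under 0.05. No Notch gene had genotypes that did not overlap, as 4.36% of tested genes did. Within the female label, edgeR also called 0 of the 10 and 0 of all genes, with 2518 genes at an unadjusted p under 0.05, and DESeq2 called 85 genes in male-labelled and 424 in female-labelled libraries, none of them a Notch gene. Under the female label the genotypes did not overlap for 2 of the 10, *Notch2* and *Heyl*, where 14.5% of all tested genes did not overlap, a share near that of these genes. *Notch2* had 112 to 121 CPM in the 3 TauT+/+ and 121 to 218 CPM in the 4 TauT-/- libraries, and the highest of the former was 120.6 and the lowest of the latter 121.3 CPM. Its log2 fold change was 0.46 (SE 0.24, adjusted p = 0.392 by edgeR). *Heyl* had 0.287 to 3.60 CPM in TauT+/+ and 0 to 0.209 CPM in TauT-/- female-labelled libraries, a log2 fold change of -4.14 (SE 1.96, adjusted p = 0.347 by edgeR), against 1.08 (SE 1.5) in male-labelled libraries. The difference between the labels was -5.23 (SE 2.47), with a p of 0.0535 without adjustment and 0.99988 with it in the edgeR fit over all tested genes. *Hey1* had log2 fold changes of -1.85 and -1.68 under the male and female label, and no member's difference between the labels passed the test. These contrasts follow the labels, which sex-linked genes went against in 3 libraries. Among those is TauT+/+ female 3, which had the *Notch2* value of 120.6 CPM. In each genotype the near-identical libraries male 1 and female 1 fall under different labels, so the labels are not independent sets of libraries.

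**Figure D4:**
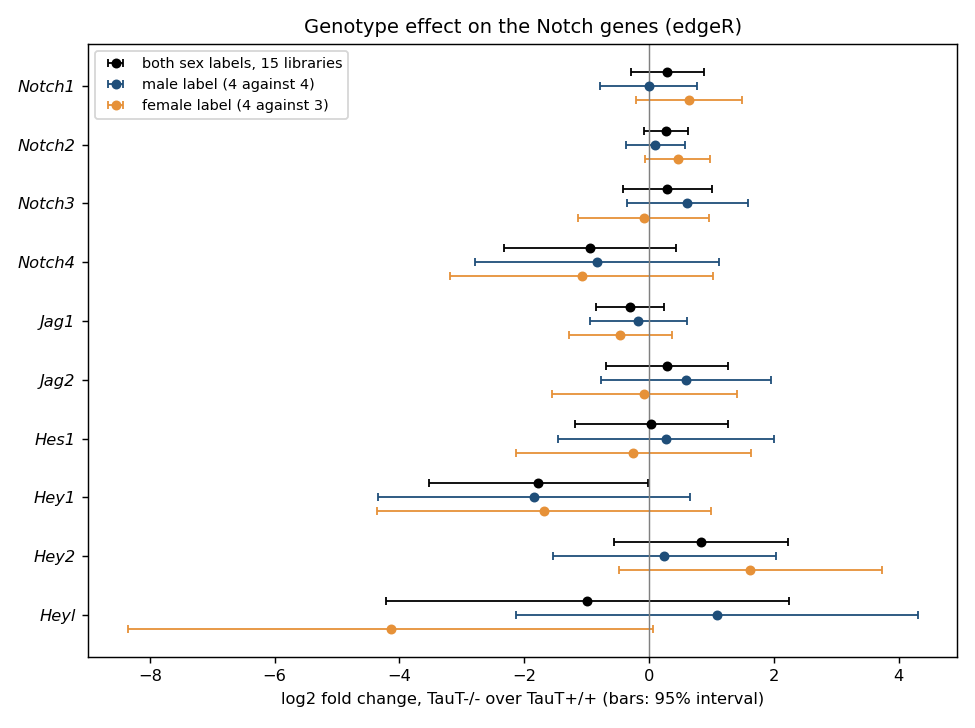
Log2 fold change of TauT-/- over TauT+/+ MSCs on the x axis for each Notch gene, with its 95% interval from edgeR, for 15 libraries and for each sex label. All intervals but that of *Hey1* over 15 libraries, -3.53 to -0.02, include 0, and those of *Heyl* are the widest.

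The rest of the pathway was followed in a list of 60 further genes, of which 54 had enough counts to be tested. edgeR called 0 of the 54, and 6 were higher and 6 lower at an unadjusted p under 0.05, a share of 22.2% beside 23.6% of all tested genes. DESeq2 called 4 higher and 3 lower, 12.96% beside 12.1%. Both shares were near those of all genes. The median log2 fold change of the list was 0.07. The untested genes were the ligands *Dll3* and *Dll4* and the targets *Nrarp*, *Hes2*, *Hes3* and *Hes5*, which had low counts in all or most libraries.

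The 7 genes called by DESeq2 were named after their values were seen. On simulated counts DESeq2 called 47 unchanged genes beside 167 changed ones, and edgeR 6 beside 152. The simulated libraries were drawn independently, without near-identical pairs or a sex effect, from spreads estimated by edgeR and with 4-fold changes. They do not measure how many of the DESeq2 calls in these data are false. Among the 7 other ligands in the list, *Dll1*, the Delta-like ligand expressed here at a low level, had 1.31 ± 1.18 CPM (SD, n = 7) for TauT+/+ and 0.323 ± 0.0981 CPM (SD, n = 8) for TauT-/-. All 8 TauT-/- libraries were below the TauT+/+ median, but only 2 of 8 were below the TauT+/+ minimum. Its log2 fold change was -1.89 (SE 0.47, adjusted p = 0.0596 by edgeR and 0.00314 by DESeq2). The edgeR fits with 13 libraries gave -2.12 and -1.96 and that with 12 gave -1.59, with adjusted p of 0.0820, 0.0974 and 0.158. *Cntn1* and *Dner*, proposed non-canonical ligands, had log2 fold changes of 1.69 (SE 0.96) and 0.89 (SE 0.60) with edgeR adjusted p of 0.302 and 0.386. Single libraries led both, and the values were 0.58 without the library labelled TauT-/- female 1 for *Cntn1* and 0.36 without that labelled TauT-/- female 4 for *Dner*.

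The 9 genes whose enzymes add sugars to Notch had a median log2 fold change of -0.11, with 3 above and 6 below 0. At an unadjusted edgeR p under 0.05, 4 of 9 were lower and 0 higher, where 2236 of all 17204 tested genes were lower. *Poglut2*, an O-glucosyltransferase of EGF repeats, had a mean of 35.0 ± 8.51 CPM for TauT+/+ and 21.0 ± 5.38 for TauT-/- (SD, n = 7 and 8), and 7 of 8 TauT-/- libraries were below the TauT+/+ minimum. Its log2 fold change was -0.73 (SE 0.18, adjusted p = 0.0570 by edgeR and 0.00432 by DESeq2), and -0.75 when 10 counts were required in every library, where it passed edgeR's threshold. With 13 libraries it was -0.75 or -0.69 and with 12 it was -0.77, and it did not pass (adjusted p = 0.0914, 0.110 and 0.158 by edgeR). *Pofut1*, the O-fucosyltransferase that primes Notch for Fringe enzymes, had 129.8 ± 42.2 and 87.3 ± 17.1 CPM, giving a log2 fold change of -0.56 (SE 0.19, adjusted p = 0.108 by edgeR). *Poglut1*, which also glucosylates Notch, had a log2 fold change of -0.30 (SE 0.11, adjusted p = 0.114 by edgeR and 0.0455 by DESeq2). The fourth was *Eogt*, with -0.47 (SE 0.21, adjusted p = 0.199 by edgeR). In all 4 genes the ranges of the genotypes overlapped over 15 libraries, with the lowest value in the library labelled TauT-/- female 4. Within each sex label, *Poglut2* did not overlap, while *Pofut1*, *Poglut1* and *Eogt* did. Its TauT-/- maximum and TauT+/+ minimum were 25.3 and 26.8 CPM (male label) and 24.6 and 25.1 CPM (female label). Of all tested genes, 4.36% and 14.5% did not overlap under these labels. *Poglut2* passed in 7 of 28 alternative fits, DESeq2 among them.

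The 10 genes for receptor cleavage had 9 values above and 1 below 0, with a median of 0.15, and 3 of 10 were higher at an unadjusted edgeR p under 0.05, where 1830 of all 17204 tested genes, 10.6%, were higher. *Psenen*, a γ-secretase subunit, had a mean of 13.8 ± 1.22 CPM for TauT+/+ and 18.5 ± 3.12 for TauT-/- (SD, n = 7 and 8), and 6 of 8 TauT-/- libraries were above the TauT+/+ maximum. Its log2 fold change was 0.42 (SE 0.11, adjusted p = 0.0669 by edgeR and 0.00699 by DESeq2). *Aph1c*, which encodes another subunit, had 6.93 ± 2.19 and 18.7 ± 18.7 CPM, with 64.1 CPM in the library labelled TauT-/- female 4. The log2 fold change of *Aph1c* was 1.21 (SE 0.39, adjusted p = 0.0937 by edgeR and 0.0205 by DESeq2), and 0.81 without that library. *Aph1c* has a close copy, *Aph1b*, so its counts are uncertain where reads fit both. *Ncstn*, the third of these, had a log2 fold change of 0.21 (SE 0.092, adjusted p = 0.189 by edgeR).

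Among 13 genes of trafficking and ubiquitination, 6 were above and 7 below 0. *Dtx3*, of the Deltex family, had 129.7 ± 98.1 and 71.0 ± 21.7 CPM, giving a log2 fold change of -0.84 (SE 0.36, adjusted p = 0.173 by edgeR), and -0.39 without the library labelled TauT+/+ male 4, which had 345 CPM. *Neurl1b*, a Neuralized-type ubiquitin ligase, had a log2 fold change of 0.82 (SE 0.30, adjusted p = 0.124 by edgeR and 0.0431 by DESeq2). Of 15 nuclear partners, 10 were above and 5 below 0, with a median of 0.07. *Ctbp1*, a corepressor, had 0.21 (SE 0.081, adjusted p = 0.137 by edgeR and 0.0285 by DESeq2). Only 2 further target genes were tested, *Hes6* and *Hes7*, with 1 above and 1 below 0.

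**Figure D5:**
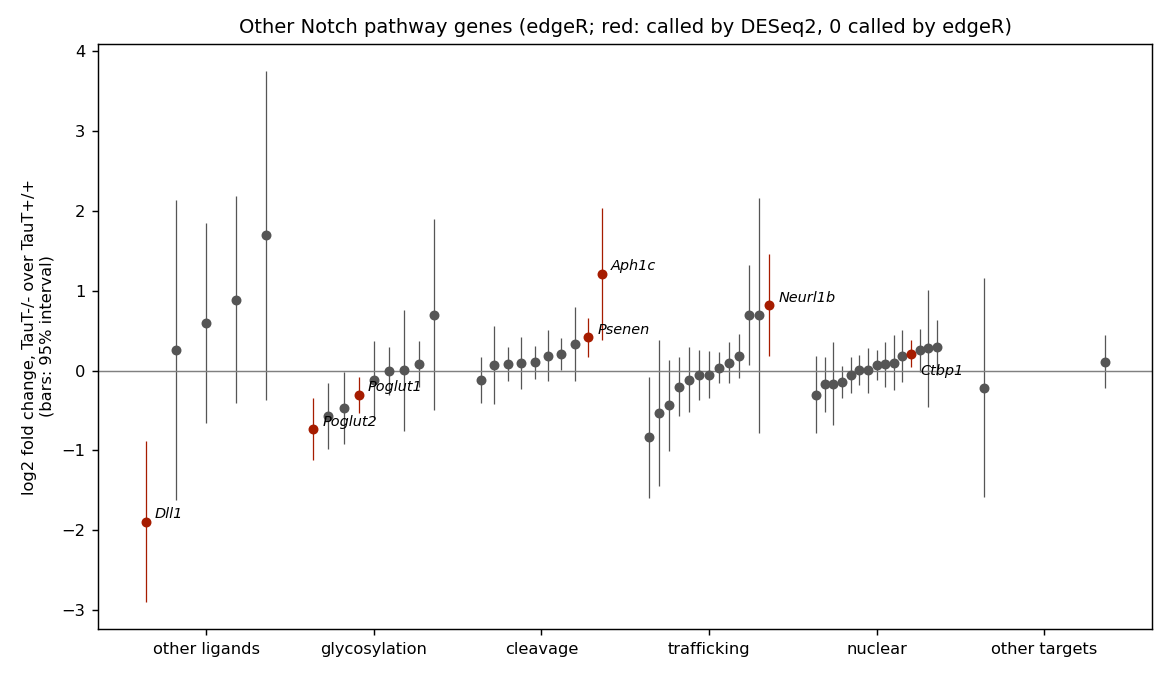
Log2 fold change of TauT-/- over TauT+/+ MSCs (y axis) with its 95% interval from edgeR for the 54 tested genes of the wider Notch pathway, grouped by role on the x axis, with the 7 genes that DESeq2 called in red. Intervals of the glycosylation genes called by DESeq2 lie below 0 and those of the cleavage genes called by it above 0, while edgeR called none of the 54.

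Most markers of each cell type followed here lay on one side of 0 between the genotypes, although edgeR called 1 of them. All 12 macrophage markers had log2 fold changes above 0, with a median of 0.94 and 1 called by edgeR, and their summed level was 1268 to 9040.1 CPM in TauT+/+ and 6009 to 19503 CPM in TauT-/- libraries. Among them, *Ptprc*, which encodes the blood cell protein CD45 used for the depletion, still had 27.9 to 179 CPM in TauT+/+ and 114 to 370 CPM in TauT-/- libraries. Of 12 MSC markers, 9 were below 0, with sums of 27878 to 47229 CPM and 6098 to 40096 CPM, and *Lepr*, a marker of marrow stromal cells in vivo, was at most 2.35 CPM. Of 11 tested mural markers, 9 were below 0, with sums of 4912 to 8289 CPM and 1074 to 7670.5 CPM, and *Higd1b* was under 1 CPM in all libraries. Of 8 tested osteoblast markers, 7 were below 0, with sums of 1663 to 7638 CPM and 3223 to 16723 CPM that were led by *Spp1*, the 1 marker above 0. The part of these markers in the levels of *Notch3*, *Heyl* and the other Notch genes was not tested.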

How the data were processed

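Bulk RNA-sequencing libraries of TauT+/+ and TauT-/- MSCs were prepared by the authors from full-length, poly(A)-primed and PCR-amplified cDNA. According to the submitters' processing notes, reads were filtered with fastp 0.23.1, mapped with STAR 2.7.9a to GRCm39 and counted on genes with featureCounts of Subread 2.0.1. The paper's methods name the GENCODE M31 annotation and a strand setting for reverse-stranded reads, and call this mouse build the human genome. No step that marks strand is named for the kit. *Hes1*, *Hey1*, *Jag1*, *Notch1*, *Notch2*, *Notch3* and *Notch4* each overlap a gene on the opposite strand, so reads of the 2 may not be told apart. What was deposited are counts, whole numbers of reads per gene that were not normalized, and 0 columns were left without a sample.

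Counts were scaled by TMM, filtered with filterByExpr and tested in R 4.3.3 with edgeR 4.0.16 (quasi-likelihood test, Benjamini-Hochberg over 17204 genes, threshold 0.05), in a model of labelled sex plus genotype, as the study used. Contrasts within a sex label and their difference used 1 term per group. DESeq2 1.42.0, on the same genes, and voom with quality weights of limma 3.58.1 were alternatives, beside upper-quartile scaling, other filters, no sex term, a replicate block, single sex labels, fits with 13 and 12 libraries and leaving out each library. CPM use TMM-scaled library sizes. Exon lengths are unions of GENCODE M39 exons on GRCm39, newer than the authors' annotation, and 0.01 was added per kb before logarithms. Promoters come from RefSeq. Permutation tests were run in Python 3.11.15 with SciPy 1.17.1. On simulated counts for 17204 genes, with 200 genes changed 4-fold between the genotypes, the calls of edgeR were 152 changed and 6 unchanged genes, those of DESeq2 167 and 47, and those of voom 147 and 8.

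All 10 members were named. Of the wider list, the rule named every gene past the edgeR threshold and the 3 largest rises and 3 largest falls whose mean CPM was 1 or more, and for each member the 1 gene with the most like pattern among genes with at least 5 CPM. Members and lists were chosen with earlier results of these data known. Depth is given with the libraries in the report, and limits for counts of 0 are those of 3 counts.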

Additional observations from a re-analysis of the deposited data

Results flagged for a closer look

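Of 30 groups of 4 libraries examined, 10 genes in each of the 3 groups of that size, 2 held a library that stood apart by Dixon's ratio. The ratio is its distance from the next library as a part of the whole range. About 1.5 groups would do so by chance if values were normally distributed. CPM of genes with low counts are skewed and the genes share libraries, so that number is only a rough guide. For *Hey1*, the library labelled TauT+/+ male 2 had 11.5 CPM where the other 3 of its group had 0.350 to 2.18 CPM, a ratio of 0.836. For *Heyl*, the library labelled TauT-/- male 3 had 4.74 CPM where the other 3 had 0 to 0.126 CPM, a ratio of 0.973.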

How the results depend on the processing

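No alternative called any of the 10 Notch genes, for the genotype effect, within a sex label or for the difference between labels. The count of all genes called, 223 with edgeR, was 2078 with DESeq2 filtered at 0.05 and 2062 at its default of 0.1, 1319 with voom, 74 without a filter on low counts, 446 without the sex term and 0 with either sex label alone. It was 2 or 7 with 13 libraries (female-labelled or male-labelled ones kept), 0 with 12, and 12 (without TauT+/+ female 2) to 1255 (without TauT+/+ male 3) with 1 library left out. It was over 1.5 times lower without TauT+/+ male 1, male 2, female 1 or female 3, or without TauT-/- male 1, male 3, male 4, female 2, female 3 or female 4 (13 to 148 genes). Of the wider Notch list, 0 genes with edgeR became 7 with DESeq2 at either level, 4 with voom, 1 with at least 10 counts in every library, 1 without the sex term and 0 to 3 with 1 library left out (3 without TauT+/+ male 3, 2 without TauT-/- female 1). Within the male label DESeq2 called 85 or 84 genes and leaving out 1 library gave 0 to 1. Within the female label it called 424 or 425 genes, 2 of the wider list at either level, voom called 47, and leaving out 1 library gave 0 to 3. For the difference between labels DESeq2 called 2 genes at either level. The causes were not tested.

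The sign of some small log2 fold changes turned. *Notch3* was -0.069 in female-labelled libraries alone and -0.086 with voom, *Jag2* -0.048 and *Hes1* -0.23 in female-labelled libraries alone, and *Heyl* 1.11 in male-labelled ones alone. With 1 library left out, *Hes1* was between -0.24 and 0.37, and the TauT+/+ level of *Notch1* minus *Notch4* per length (log2) between -0.018 and 0.55. Of the neighbours in the TauT-/- order of levels, 3 pairs passed with 8 libraries and 0 with any 1 left out, where the smallest p allowed is higher. That alternative was chosen after seeing the data. *Notch1*, *Notch2*, *Notch4*, *Jag1*, *Hey1* and *Hey2* kept their sign in every alternative to the fit with 15 libraries. *Notch1* came as low as 0.004 among these alternatives. Its contrast within the male label was -0.008 (SE 0.36), against 0.64 (SE 0.40) within the female label.

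Replicate numbers are shared between the groups, but the labels do not say that they mark a shared animal or day, and not every same-numbered pair of libraries deviated together (r = 0.188 to 0.612 in male-labelled, 0.252, 0.0591 and -0.0319 in female-labelled pairs). Each male-labelled library correlated best with its own number, and 1 of 3 female-labelled ones did. With the replicate block within the sex label, 259 genes were called, 0 Notch genes and 1 of the wider list (*Poglut2*, edgeR adjusted p = 0.0462), and *Hes1* was -0.15. The library TauT-/- female 4 has no partner in the block. *Hey1*, *Hey2* and *Heyl* rest on low counts in the shallower female-labelled libraries, which limits what they can show.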

Other observations

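For each Notch gene, the gene with the most like pattern over the 15 libraries was taken from 10904 tested genes with a mean of at least 5 CPM, by the mean absolute difference of centred log2 CPM. A small value means that the centred levels of 2 genes lay close on average over the libraries. A gene that varies little can also give this, and the highest and lowest libraries of the 2 need not match. The value carries no test. *Notch2* was closest to *Fbxw7*, which encodes the F-box protein known to mark cleaved Notch for degradation, at 0.113, where *Notch2* itself deviated from its mean by 0.251. *Notch1* was closest to *Dnajb6* (0.23, own deviation 0.414), *Jag1* to *Map4k4* (0.258, 0.413), *Jag2* to *Cd86* (0.291, 0.734) and *Notch3* to *Zbtb49* (0.323, 0.558). *Cd86* encodes a costimulatory protein of macrophages and other antigen-presenting cells, and had 7.27 to 42.9 CPM.

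The difference grows with a gene's own deviation, so the values of different members are not ranked. *Hes1* was closest to *Olfm1* (0.512, own deviation 1.03), *Notch4* to *Inhba* (0.520, 1.119), *Hey2* to *Alkal1* (0.618, 1.10), *Hey1* to *Apoe* (0.949, 1.52) and *Heyl* to *Lama2* (1.41, 2.23). *Inhba*, which encodes a subunit of activin, had 71.1 CPM in the library labelled TauT+/+ female 1 and 937 CPM in that labelled TauT+/+ male 3, which also had the highest *Notch4*. With 15 libraries that share near-identical pairs, such likeness is a description of these libraries only.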
